A study of Mus musculus with 12 samples.

Results

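Glycolysis and hypoxia-response genes were examined in the epiblast of mouse embryos at E7.75, as a list of 35 genes that holds the enzymes of glycolysis, the kinases that steer its flux and genes known to respond to low oxygen. A gene was measured where a probe bearing its name was detected (p-value against negative controls under 0.05) on 3 or more of the 12 arrays, and the probe with the highest mean then stood for the gene. Of the 35 genes, 28 had a named probe and 25 passed, among 11124 genes measured in all. The 25 were 13 enzymes, 3 regulatory kinases and 9 hypoxia-response genes. Eno2 and Egln1 were detected on 9 arrays each, the fewest among the members, while Pdk2 was detected on 2 arrays and Bnip3 and Adm on 0. Hk1, Hk2, Gpi1, Gapdh, Eno1, Ldhb and Pfkfb3 had no probe under their names in the annotation used here and were not analysed here.

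The samples were posterior and anterior epiblast of Dkk-/- embryos (knockout) and posterior and anterior epiblast of Dkk+/+ embryos (control), with 3 Illumina bead arrays in each of these 4 groups. The sample codes name Dkk1, a secreted inhibitor of Wnt signalling that the head needs to form. The sources used here do not say how the allele was made, whether embryos were pooled or which arrays share embryos, and the labels' protocol speaks of 4 genotypes while naming only these. The Dkk1 probe averaged 6.14 ± 0.14 in knockout and 5.98 ± 0.17 in control anterior arrays (SD, n = 3 each, log2 normalized intensity). Posteriorly it averaged 4.51 ± 0.22 in knockout arrays, none of which detected it, and 4.94 ± 0.26 in control arrays, of which 2 did (SD, n = 3 each, limma adjusted p = 0.439). Since its place relative to the altered part of the gene is unknown here, it does not check the labels. Knockout posterior replicates 2 and 3 had the weakest mean raw signals, 189 and 301, and the strongest array reached 693, and between 23 and 25 members were detected per array. Of 10 primitive streak markers 9 were measured, and all 9 were higher in posterior than in anterior arrays of both genotypes. Visceral endoderm markers, 9 of 10 detected, were present as well. The summed level of a marker list is the log2 of its genes' added normalized intensities, so the brightest probes weigh most. For this list it was 15.25 to 15.32 in knockout posterior and 15.33 to 15.53 in knockout anterior arrays. It was 15.32 to 15.39 in control posterior and 15.35 to 15.5 in control anterior arrays. The samples labelled epiblast thus also held transcripts of this neighbouring layer. None of the 9 passed in any comparison.

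Glycolysis breaks glucose down to pyruvate in the cytoplasm, and lactate dehydrogenase turns pyruvate into lactate so that the pathway can run on without oxygen. When oxygen is low, the hypoxia-inducible factors (HIF) escape the prolyl hydroxylases that mark them for destruction and switch on glycolytic enzymes, the vascular growth factor gene Vegfa and their own inhibitors. In the mouse embryo at gastrulation the epiblast is highly glycolytic and has no blood supply of its own.

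HIF binds DNA at the core letters ACGTG or GCGTG. Promoters are shown for members that differed along the body axis, except Eno2, and for Ldha, whose normalized level varied least. Each is the 250 bases before the annotated gene start in RefSeq on GRCm38.p6, printed on the gene's strand, with every ACGTG or GCGTG on either strand in capitals (CACGT and CACGC when the match lies on the opposite strand, overlaps counted). The windows are chr12:54203875-54204124 (minus strand) for Egln3, chr10:59951771-59952020 (minus) for Ddit4, chr8:45999851-46000100 (minus) for Ankrd37, chr11:5803797-5804046 (minus) for Pgam2 and chr7:46845554-46845803 (plus) for the first of the Ldha starts.
Egln3: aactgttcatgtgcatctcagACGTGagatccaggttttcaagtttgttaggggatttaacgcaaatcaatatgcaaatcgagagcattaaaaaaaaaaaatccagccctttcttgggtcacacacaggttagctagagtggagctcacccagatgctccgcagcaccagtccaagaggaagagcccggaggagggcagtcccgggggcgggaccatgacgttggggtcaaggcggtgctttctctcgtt
Ddit4: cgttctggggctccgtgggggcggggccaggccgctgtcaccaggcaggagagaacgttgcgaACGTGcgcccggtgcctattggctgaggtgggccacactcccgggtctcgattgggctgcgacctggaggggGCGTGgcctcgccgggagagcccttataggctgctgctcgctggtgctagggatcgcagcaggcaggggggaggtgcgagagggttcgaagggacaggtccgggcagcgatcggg
Ankrd37: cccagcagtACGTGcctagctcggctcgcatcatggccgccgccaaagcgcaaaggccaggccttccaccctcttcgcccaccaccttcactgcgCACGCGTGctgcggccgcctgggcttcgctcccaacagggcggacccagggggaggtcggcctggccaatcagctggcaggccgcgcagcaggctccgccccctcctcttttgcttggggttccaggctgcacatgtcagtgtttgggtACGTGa
Pgam2: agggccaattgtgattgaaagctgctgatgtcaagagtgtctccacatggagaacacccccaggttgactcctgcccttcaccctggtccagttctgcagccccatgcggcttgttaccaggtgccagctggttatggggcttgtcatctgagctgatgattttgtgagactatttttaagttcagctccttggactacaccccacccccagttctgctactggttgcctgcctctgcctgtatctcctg
Ldha: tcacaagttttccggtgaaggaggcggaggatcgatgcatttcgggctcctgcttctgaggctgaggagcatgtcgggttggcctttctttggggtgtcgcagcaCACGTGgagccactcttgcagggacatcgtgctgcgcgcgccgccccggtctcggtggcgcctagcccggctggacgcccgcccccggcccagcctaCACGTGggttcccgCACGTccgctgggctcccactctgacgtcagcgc

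The Egln3 window held 1 match, whose first letter lies 229 bases before the start. The Ddit4 window held 2, at 187 and 115 bases, and that of Ankrd37 held 4, at 241, 155, 152 and 6 bases. The Ldha window held 5, at 145, 144, 48, 47 and 34 bases. The Pgam2 window and that of Eno2 held none. Over the 24 measured members with a window, 26 of 34 windows (76.5%) had ACGTG or GCGTG, beside 38.6% of all 32851 windows. ACGTG alone was in 17 of the 34 (50%), beside 16.6% of all windows. Of the 5 windows of members that passed along the axis, 3 (60%) had ACGTG or GCGTG. These shares describe letters, and several members have more than 1 window. The list holds known HIF targets, and the windows of all genes include genes not measured here. The member share set beside the share of all windows is therefore no test. A match is not evidence of binding, and the letters were present both in members that differed along the axis and in members, such as Ldha and Pgk1, that did not pass any test.

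The first comparison asked how the genes differ between the posterior epiblast, which holds the primitive streak, and the anterior epiblast, from which the head arises. In knockout arrays 5 of 25 members (20%) passed at an adjusted p under 0.05, against 7.87% of all genes. Egln3 and Ddit4 were higher posteriorly, and Ankrd37, Pgam2 and Eno2 were lower. In control arrays 2 of 25 (8%) passed, against 4.98% of all genes, with Egln3 higher and Pgam2 lower. Changes are limma log2 differences, posterior minus anterior, and adjusted p-values are Benjamini-Hochberg values over all 11124 genes. The labels do not tie arrays to embryos, and the p-values speak only of the spread among these samples, which may be technical. In whole tissue pieces, fewer cells of a type and less RNA per cell cannot be told apart.

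Egln3 encodes a prolyl hydroxylase that acts on HIF and is itself switched on by HIF. Its level was 9.39, 9.02 and 9.75 in knockout posterior arrays, against 7.89, 8.24 and 8.35 in knockout anterior arrays. In control embryos it was 9.42, 9.26 and 9.14 posteriorly, against 8.30, 8.27 and 8.47 anteriorly. Every posterior array lay above every anterior array in both genotypes, and the posterior levels of knockout and control overlapped. The difference was 1.23 (SE 0.18, 95% interval 0.83 to 1.63) in knockout arrays, a 2.35-fold higher signal (adjusted p = 0.00118). It was 0.92 (SE 0.18, 95% interval 0.53 to 1.32) in control arrays, a 1.90-fold higher signal (adjusted p = 0.00926). Egln3 passed in both genotypes under all 23 other settings tried. The difference between the genotypes in this change was 0.31 (adjusted p = 0.891).

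Ddit4 encodes a stress-induced inhibitor of mTOR signalling and is a HIF target. Its level was 10.48, 10.35 and 10.50 in knockout posterior arrays, against 9.68, 9.35 and 9.37 in knockout anterior arrays. Control embryos had levels of 9.72, 9.96 and 10 posteriorly, against 9.32, 9.87 and 9.76 anteriorly. The knockout groups lay apart, and the knockout posterior arrays were close together, whereas the control groups overlapped. The posterior difference was 0.98 in knockout arrays (SE 0.16, 95% interval 0.63 to 1.33), a 1.97-fold higher signal (adjusted p = 0.00265), and passed under all 23 other settings. In control arrays it was 0.25 (adjusted p = 0.494). The difference between these changes was 0.73 (SE 0.23, 95% interval 0.24 to 1.23), with an adjusted p of 0.659 that ran from 0.161 to 0.91 over the other settings. Ddit4 is therefore not shown to respond to region differently in the 2 genotypes.

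Ankrd37, an ankyrin-repeat protein gene and HIF target, was lower posteriorly, a difference that passed in knockout arrays. Its level was 6.65, 6.12 and 6.40 in knockout posterior arrays, against 7.02, 7.46 and 6.86 in knockout anterior arrays. In control embryos it was 6.42, 6.34 and 6.32 posteriorly, against 6.95, 6.81 and 7.35 anteriorly. All posterior arrays lay below all anterior ones in both genotypes. The change was -0.72 in knockout arrays (SE 0.19, 95% interval -1.13 to -0.31, adjusted p = 0.0366) and -0.68 in control arrays (SE 0.19, 95% interval -1.09 to -0.27, adjusted p = 0.0624). The knockout call held in 12 of 23 other settings and was lost without knockout anterior replicate 1 or 2, knockout posterior replicate 2 or 3, or any of the control posterior arrays, with changes from -0.77 to -0.55 and adjusted p-values up to 0.128. The control difference passed in 7 of 23, among them without knockout anterior replicate 2 (adjusted p = 0.0357) or knockout posterior replicate 2 (adjusted p = 0.0428). Under median scaling, which put the median over all genes at 0.16, the knockout change was -0.46 (adjusted p = 0.179). Of the HIF targets in knockout arrays, Egln3 and Ddit4 passed as higher posteriorly and Ankrd37 as lower, and HIF activity was not tested.

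**Figure D1:**
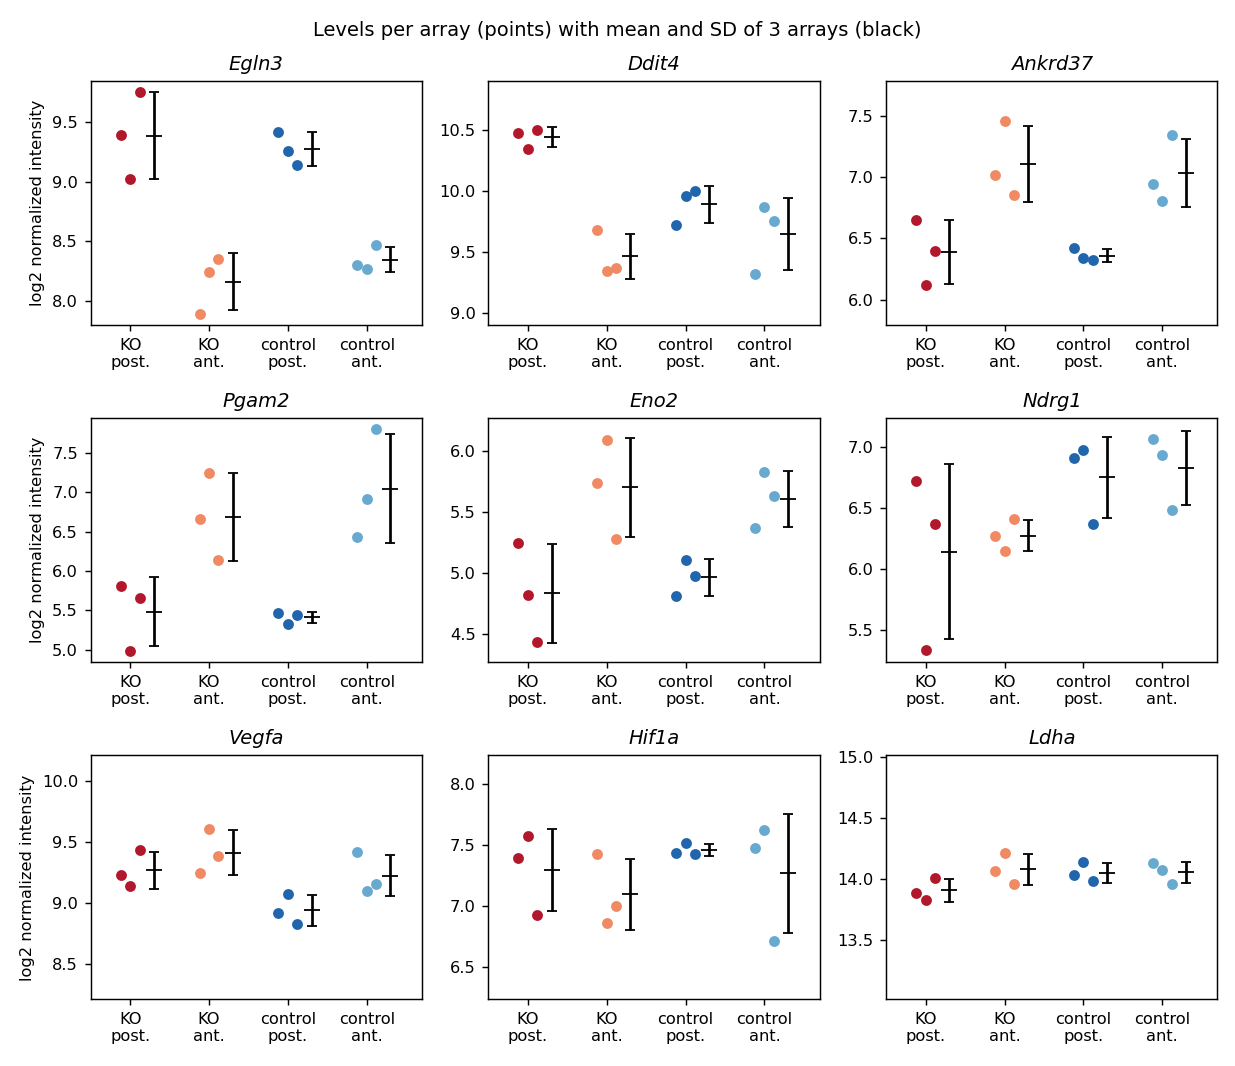
Each panel plots 1 gene, with the log2 normalized intensity on the y axis (scaled to that gene) and the 4 groups on the x axis, knockout before control and posterior before anterior. Points are arrays, and the black bar is the mean with its SD over 3 arrays. Egln3 was higher in all posterior arrays, Ankrd37, Pgam2 and Eno2 were lower in all of them within each genotype, and Ldha ran from 13.83 to 14.21 over all 12 arrays.

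Of the enzymes, Pgam2, the muscle form of phosphoglycerate mutase, changed most along the axis. Its level was 5.81, 4.98 and 5.65 in knockout posterior arrays, 2 of which detected it, against 6.66, 7.25 and 6.14 in knockout anterior arrays. Control embryos had levels of 5.46, 5.33 and 5.44 posteriorly, against 6.43, 6.91 and 7.80 anteriorly. Posterior and anterior arrays did not overlap in either genotype, and the anterior arrays were the more spread, with an SD of 0.55 in knockout and 0.70 in control. The change was -1.20 in knockout arrays (SE 0.34, 95% interval -1.93 to -0.47), a 2.30-fold lower signal (adjusted p = 0.0466). It was -1.64 in control arrays (SE 0.34, 95% interval -2.37 to -0.91), a 3.12-fold lower signal (adjusted p = 0.0117). The control call held in 20 of 22 other settings, with changes from -1.93 to -0.77, and was lost without control anterior replicate 3 (-1.27, adjusted p = 0.0508) or control posterior replicate 2 (-1.58, adjusted p = 0.0515). The knockout call held in 7 of 22, and under median scaling the change was -0.62 (adjusted p = 0.332). It was lost without knockout anterior replicate 1 or 2, control anterior replicate 2, knockout posterior replicate 2 or 3, or any of the control posterior arrays, with changes from -1.31 to -0.92 and adjusted p-values up to 0.171. Pgam1, the widely expressed form of the same enzyme, had -0.13 in knockout and -0.24 in control arrays and did not pass. The other detected probe of Pgam1 had -0.70 in knockout (limma adjusted p = 0.0972) and -0.21 in control arrays (adjusted p = 0.77).

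Eno2, the neuronal enolase, was near the detection limit posteriorly, with 1 of 3 knockout and 2 of 3 control posterior arrays detecting it. Its level was 5.25, 4.82 and 4.44 in knockout posterior arrays, against 5.74, 6.09 and 5.28 in knockout anterior arrays. In control embryos it was 4.81, 5.11 and 4.98 posteriorly, against 5.37, 5.83 and 5.63 anteriorly. The groups did not overlap in either genotype, though knockout posterior replicate 1 lay just below the lowest knockout anterior array. The change was -0.87 in knockout arrays (SE 0.23, 95% interval -1.36 to -0.38, adjusted p = 0.0366) and -0.65 in control arrays (SE 0.23, adjusted p = 0.146). The knockout call held in 11 of 22 other settings, and under median scaling the change was -0.10 (adjusted p = 0.862). It was lost without knockout anterior replicate 1 or 2, knockout posterior replicate 2 or 3, or control posterior replicate 3, with changes from -0.89 to -0.68 and adjusted p-values up to 0.133. Eno3, the muscle enolase, had changes of -0.36 in knockout (adjusted p = 0.152) and -0.21 in control arrays and did not pass.

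None of the other enzymes passed along the axis. Phosphofructokinase, the main control point of the pathway, has liver, muscle and platelet forms. The muscle form Pfkm had a change of -0.24 in knockout (adjusted p = 0.211) and -0.30 in control arrays (adjusted p = 0.159), with posterior below anterior on every array of both genotypes. Another Pfkm probe did not share this, with 0.23 in knockout (adjusted p = 0.476) and -0.03 in control arrays (adjusted p = 0.966). The liver form Pfkl had -0.02 and -0.11, and the platelet form Pfkp -0.05 and -0.27, in the same order of genotypes. Of the aldolases, which split the sugar, Aldoa had -0.10 in knockout and -0.07 in control arrays, and the brain form Aldoc had 0.40 and 0.32. Triose phosphate isomerase (Tpi1) had -0.01 in knockout and 0.22 in control arrays, and pyruvate kinase (Pkm), which makes pyruvate, had 0.11 and 0.08. Phosphoglycerate kinase (Pgk1) had -0.26 (adjusted p = 0.189) in knockout and -0.15 in control arrays, and its knockout groups did not overlap. Ldha, which makes lactate, had -0.18 in knockout arrays (95% interval -0.44 to 0.08) and 0.00 in control arrays (95% interval -0.26 to 0.26). As a group, 11 of 13 enzymes in knockout and 10 of 13 in control arrays had a negative change, with medians of -0.13 and -0.15 beside -0.01 and 0.01 over all genes. Set against the median of all genes, 10 of 13 enzymes lay lower in each genotype, and under median scaling 11 of 13 in knockout and 10 of 13 in control arrays. Negative changes under median scaling numbered 8 of 13 in knockout and 10 of 13 in control arrays. Under cyclic loess they numbered 8 of 13 and 11 of 13, with 9 and 11 below the median of all genes. The median half-width of an enzyme's 95% interval was 0.34 in each genotype.

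Among the kinases, Pdk1 inhibits pyruvate dehydrogenase and so limits the use of pyruvate in mitochondria, and it is a HIF target. Its level was 8.07, 7.89 and 8.21 in knockout posterior arrays, against 8.2, 8.26 and 8.72 in knockout anterior arrays. Control embryos had levels of 8.39, 8.42 and 8.19 posteriorly, against 8.74, 8.68 and 8.52 anteriorly. The control groups lay apart and the knockout groups overlapped at 1 array, with changes of -0.33 in knockout (adjusted p = 0.218) and -0.31 in control arrays (adjusted p = 0.339). Pdk3, a related kinase, had -0.18 in knockout and 0.12 in control arrays. Pfkfb4, which sets the level of an activator of phosphofructokinase, had -0.10 and 0.08.

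Hif1a encodes the oxygen-regulated HIF subunit, whose protein is controlled mainly by destruction, so its transcript does not measure HIF activity. Its level was 7.39, 7.57 and 6.92 in knockout posterior arrays, against 7.42, 6.86 and 7.0 in knockout anterior arrays. In control embryos it was 7.43, 7.51 and 7.42 posteriorly, against 7.47, 7.62 and 6.71 anteriorly. The groups overlapped in both genotypes, with changes of 0.20 in knockout (adjusted p = 0.661) and 0.19 in control arrays (adjusted p = 0.768). Egln1, the main HIF prolyl hydroxylase, had changes of 0.19 in knockout and 0.41 in control arrays, and did not pass. The collagen prolyl hydroxylase genes P4ha1 and P4ha2 had 0.06 and 0.38 in knockout arrays, and -0.08 and 0.25 in control arrays, with no control posterior array of P4ha2 below an anterior one. The median over the 9 hypoxia-response genes was 0.19 in both genotypes, and with array weights it was -0.01 in knockout and -0.09 in control arrays. In each axis comparison 8 of 25 members had arrays that did not overlap, beside 26.1% of all genes in knockout and 26.7% in control arrays.

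**Figure D2:**
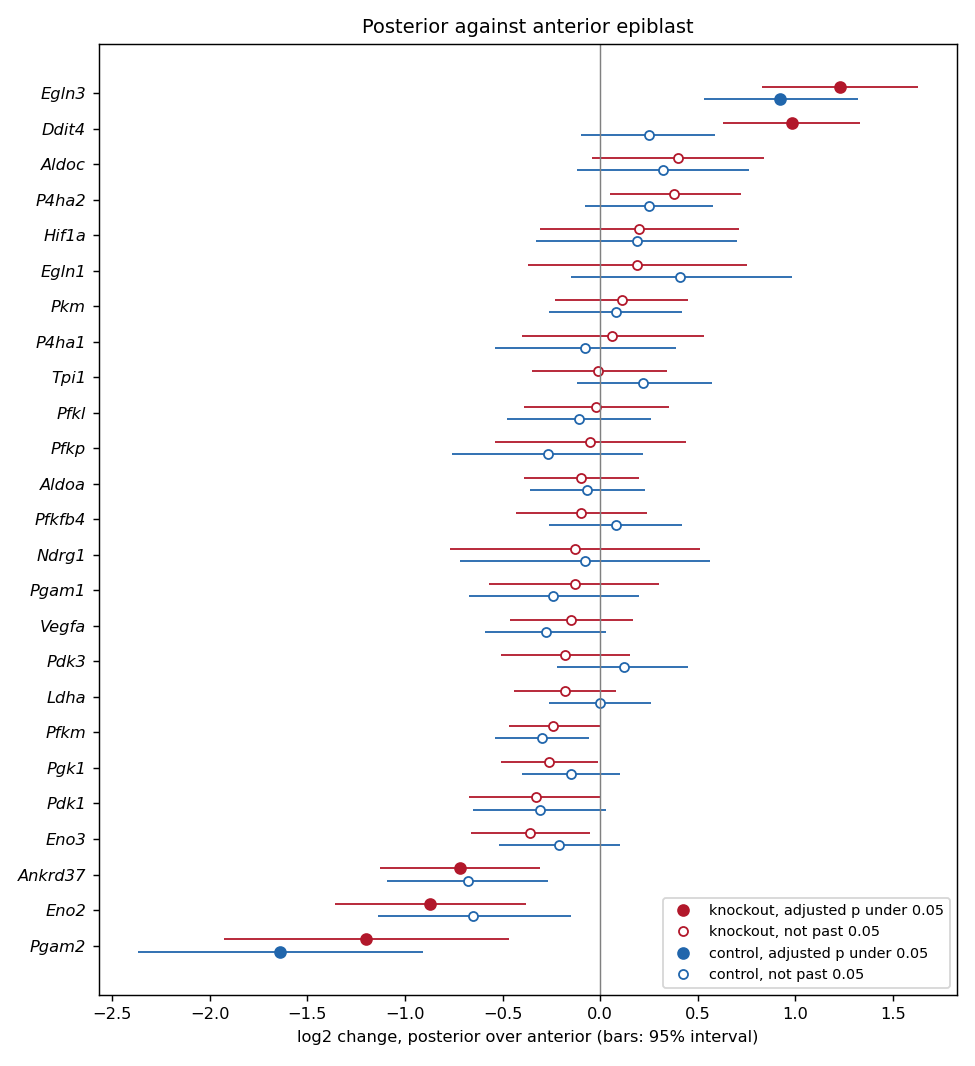
The x axis is the log2 change of posterior over anterior arrays with its 95% interval, and each row is 1 of the 25 members, knockout (red) above control (blue). Filled points have an adjusted p under 0.05. The filled points are Egln3, Ddit4, Ankrd37, Eno2 and Pgam2 in knockout arrays and Egln3 and Pgam2 in control arrays, and most other intervals span 0.

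Of the cell type markers, those of extraembryonic mesoderm and allantois also differed along the axis. All 6 of the list were detected, and their summed level was 11.91 to 12.28 in knockout posterior, against 11.40 to 11.46 in knockout anterior arrays. Control embryos had a summed level of 11.66 to 11.90 posteriorly, against 11.27 to 11.42 anteriorly. Of the 6, 4 passed as higher posteriorly in knockout and 2 in control arrays. Ahnak went the other way, with mean levels of 10.10 posteriorly against 10.45 anteriorly in knockout arrays. In control arrays Ahnak had 9.95 against 10.54, and Tbx20 had 4.83 against 5.11. The 9 streak markers had summed levels of 14.24 to 14.45 in knockout posterior against 11.55 to 11.99 in knockout anterior arrays. They had 14.26 to 14.30 in control posterior against 10.82 to 10.95 in control anterior arrays. Of 8 anterior epiblast and neural plate markers 5 were detected and Six3, Fezf1 and Zic1 were not, with summed levels of 7.69 to 8.66 in knockout posterior, 10.74 to 10.97 in knockout anterior, 9.33 to 9.65 in control posterior and 11.77 to 12.06 in control anterior arrays. Trophoblast markers, 6 of 8 detected, summed to 9.88 to 10.19 in knockout posterior, 9.38 to 9.70 in knockout anterior, 9.83 to 10.01 in control posterior and 10.02 to 10.20 in control anterior arrays, with 1 higher posteriorly in knockout and 2 lower in control arrays. Node and notochord markers, 5 of 5 detected, summed to 9.47 to 9.60 in knockout posterior, 9.66 to 9.74 in knockout anterior, 9.37 to 9.79 in control posterior and 9.64 to 9.92 in control anterior arrays, with 1 higher and 2 lower posteriorly in knockout and 1 lower in control arrays. The part of these cell types in the changes of Egln3, Ddit4, Ankrd37, Pgam2 and Eno2 was not tested. Of 12 immediate-early and heat shock genes, which respond to handling, 8 were detected and 1, Egr1, was higher posteriorly in both genotypes.

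The second comparison asked whether the genes differ between knockout and control embryos. No member passed in either region. In the anterior region 0 of 25 passed by limma, against 0.503% of all genes, and 0 had an unadjusted p under 0.05, beside 1009 of all genes. In the posterior region 0 of 25 passed, against 0% of all genes, and 3 had an unadjusted p under 0.05 (Ddit4, Eno3 and Vegfa), beside 1104 of all 11124 genes. Averaged over both regions 0 of 25 passed, against 0.512% of all genes, and 7 had an unadjusted p under 0.05, beside 1377 of all genes. The lowest adjusted p was 0.616 anteriorly, 0.351 posteriorly and 0.191 for the average. These counts of 0 held under every other setting tried. Arrays of the genotypes did not overlap for 2 of 25 members anteriorly (Pfkm and Ndrg1), beside 14.1% of all genes, and for 4 of 25 posteriorly (Pfkm, Eno3, Vegfa and Ddit4), beside 15.6% of all genes. The median half-width of a member's 95% interval was 0.35 in a single region, and 24 of 25 members anteriorly and 23 of 25 posteriorly had a change within 0.5 of 0 on the log2 scale.

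Ddit4 had the lowest p in the posterior region. From the levels given above, knockout posterior arrays, at a mean of 10.44, all lay above control posterior arrays, at 9.90, by 0.55 (SE 0.16, 95% interval 0.20 to 0.90, adjusted p = 0.351). Anteriorly the change was -0.18 (adjusted p = 0.802), with overlapping arrays. Egln3 had changes of 0.12 posteriorly (adjusted p = 0.866) and -0.19 anteriorly (adjusted p = 0.824).

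Ndrg1, a stress-response gene induced by low oxygen, had the largest change of any member in both regions. Its level was 6.27, 6.15 and 6.41 in knockout anterior arrays, against 7.07, 6.94 and 6.49 in control anterior arrays. Posteriorly it was 6.72, 5.34 and 6.37 in knockout arrays, against 6.91, 6.98 and 6.37 in control arrays. The anterior groups lay apart and the posterior ones overlapped, and the lowest value came from the dimmest array, knockout posterior replicate 2. The change was -0.56 anteriorly (SE 0.30, 95% interval -1.20 to 0.08, adjusted p = 0.616) and -0.61 posteriorly (adjusted p = 0.527). Its other detected probe had -0.39 and -0.74, in the same order of regions.

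Vegfa encodes the growth factor that draws in blood vessels. Its level was 9.25, 9.61 and 9.39 in knockout anterior arrays, against 9.42, 9.10 and 9.16 in control anterior arrays. Posteriorly it was 9.23, 9.14 and 9.44 in knockout arrays, against 8.92, 9.08 and 8.83 in control arrays. The knockout arrays were the higher ones posteriorly and overlapped with control anteriorly. The change was 0.19 anteriorly (adjusted p = 0.769) and 0.32 posteriorly (95% interval 0.01 to 0.64, adjusted p = 0.489), and by another Vegfa probe -0.04 and 0.14. Along the axis Vegfa had -0.15 in knockout (adjusted p = 0.588) and -0.28 in control arrays (adjusted p = 0.358).

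Ldha varied least of the members after normalization, while its raw signal ran from 4830 to 26300. It stood at 14.06, 14.21 and 13.96 in knockout anterior arrays, against 14.13, 14.07 and 13.96 in control anterior arrays. Posteriorly it stood at 13.88, 13.83 and 14.01 in knockout arrays, against 14.03, 14.14 and 13.98 in control arrays. All 12 arrays lay within 0.38 of each other, the narrowest range of any member. The change was 0.03 anteriorly (95% interval -0.23 to 0.29, adjusted p = 0.978) and -0.15 posteriorly (95% interval -0.41 to 0.11, adjusted p = 0.712). Over 23 other settings the change of Ldha ran from -0.04 to 0.29 anteriorly and from -0.2 to 0.21 posteriorly, and it never passed. Hif1a had changes of -0.17 anteriorly (adjusted p = 0.887) and -0.16 posteriorly (adjusted p = 0.857), with overlapping arrays in both regions. Pdk1 had -0.25 anteriorly (adjusted p = 0.695) and -0.28 posteriorly (adjusted p = 0.573).

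Averaged over both regions, 12 of 13 enzymes had a negative change, with a median of -0.14 beside 0.00 over all genes. The exception was Aldoc, at 0.37 (SE 0.14, adjusted p = 0.298). Eno3 had the lowest adjusted p, 0.191, at -0.32 (SE 0.10), and stood at -0.39 in the posterior region (adjusted p = 0.406). Pfkl had -0.27 (adjusted p = 0.394), Pkm -0.27 (adjusted p = 0.340) and Pfkp -0.30 (adjusted p = 0.464). The size of this difference depended on the scaling between arrays. Under median scaling the enzyme median was 0.11, beside 0.13 over all genes, and 8 of 13 enzymes lay below the median of all genes. Under cyclic loess it was -0.06, beside 0.01 over all genes, and 7 of 13 lay below it. With the mean of all detected probes of a gene it was -0.06 with 9 of 13 negative. Taken singly and averaged over both regions, other detected probes had 0.35 for Pfkl, 0.27 for Pgam1 and 0.24 for Pgk1. Those of Pfkp and Pfkm had -0.26 and -0.10, and those of Tpi1 had -0.19 and -0.04.

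**Figure D3:**
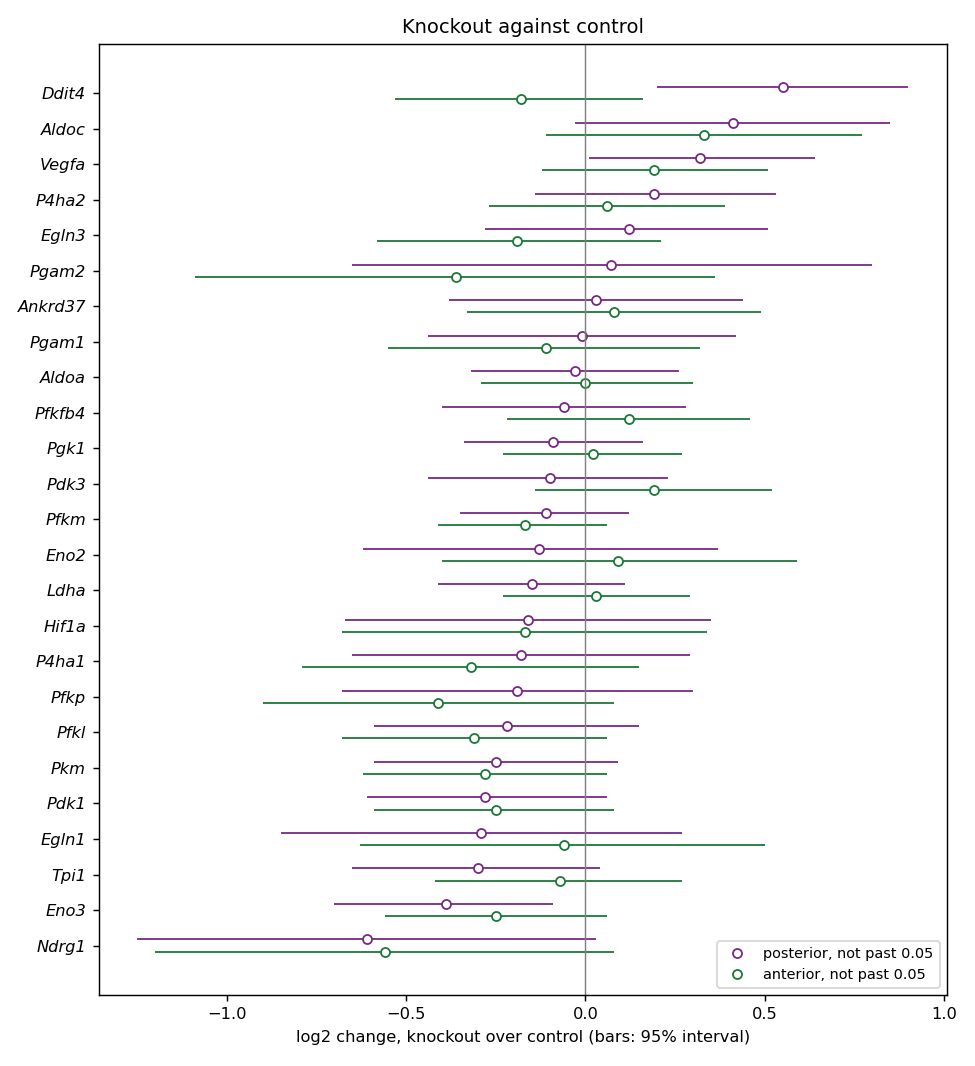
The x axis is the log2 change of knockout over control arrays with its 95% interval, and each row is 1 of the 25 members, posterior (purple) above anterior (green). No point has an adjusted p under 0.05. Posterior Ddit4 at 0.55 and Ndrg1 at -0.61 are the outermost points.

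The third comparison asked whether the genotypes differ in how the genes change along the axis. 0 of 25 members passed this interaction test by limma, against 0.00899% of all genes, and 1, Ddit4, had an unadjusted p under 0.05, beside 685 of all genes. The median half-width of its 95% interval was 0.49 over the members, wider than in the separate comparisons.

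**Figure D4:**
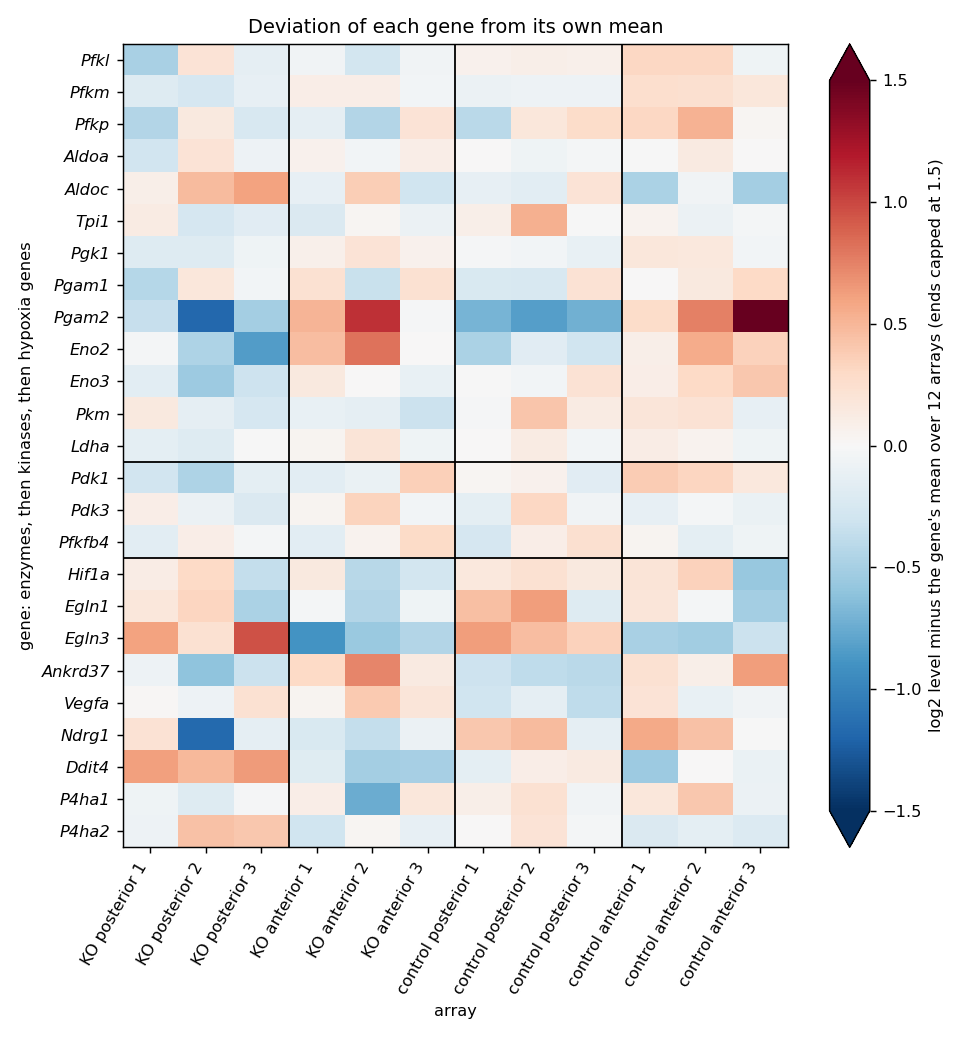
Rows are the 25 members (enzymes, then kinases, then hypoxia-response genes) and columns the 12 arrays, knockout before control and posterior before anterior. Colour is the log2 level minus the gene's mean over all 12 arrays, red above and blue below, capped at 1.5 either way. Egln3 and Pgam2 separate posterior from anterior arrays in opposite directions, and most enzyme rows are pale.

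The spread over all 12 arrays ordered the members. Pgam2 had the widest range, 2.82, followed by Egln3 (1.86), Ndrg1 (1.74), Eno2 (1.65) and Ankrd37 (1.34). Aldoc, P4ha1, Egln1 and Ddit4 lay between 1.11 and 1.18, and the other 16 members had ranges under 1. Within a group the members' median SD was 0.249 in knockout posterior, 0.192 in knockout anterior, 0.138 in control posterior and 0.172 in control anterior arrays.

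Another detected probe was present for 11 members, 12 such probes in all. Their change had the same sign as that of the probe used for 7 of 12 in each axis comparison, 7 of 12 in the posterior genotype comparison and 5 of 12 in the anterior one. For Tpi1 one other probe was lower posteriorly in knockout arrays, at -0.50 (adjusted p = 0.0408), where the probe used had -0.01. For Pgk1 the other probe had 0.68 (adjusted p = 0.0618), where the probe used had -0.26. The probes of Tpi1 and Pgk1 thus differ in what they show.

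Beyond the members, 51 of 79 genes of glucose, lactate and pyruvate handling and of the HIF response were measured. Along the axis 3 of 51 (5.88%) were lower in knockout posterior arrays (Mxi1, Rpia and Ak4), beside 7.87% of all genes called, and 1 of 51 (1.96%) in control posterior arrays (Ak4), beside 4.98% of all genes, and 0 were higher by limma. Ak4, a mitochondrial adenylate kinase and HIF target, had 7.77, 7.73 and 7.77 in knockout posterior, against 8.25, 8.15 and 8.44 in knockout anterior arrays. In control embryos it had 7.62, 7.99 and 8.01 posteriorly, against 8.44, 8.61 and 8.25 anteriorly. Posterior arrays lay below anterior ones in both genotypes, at -0.52 in knockout arrays (SE 0.15, adjusted p = 0.0466) and at -0.56 in control arrays (SE 0.15, adjusted p = 0.0469). Mxi1, a MYC antagonist, had a change of -0.78 (SE 0.19, adjusted p = 0.027) and was detected on 1 of 3 knockout posterior arrays, and Rpia, of the pentose phosphate pathway, had -0.58 (SE 0.16, adjusted p = 0.0455). Between the genotypes 1 of 51 (1.96%) passed on average over both regions, beside 0.512% of all genes. Slc16a3, a lactate exporter and HIF target, was lower in knockout arrays by a change of -0.65 (SE 0.13, adjusted p = 0.0445). Its level was 5.45, 5.14 and 4.85 in knockout posterior, against 6.30, 5.77 and 5.90 in control posterior arrays. Anteriorly it was 5.77, 5.71 and 5.63 in knockout, against 6.33, 6.25 and 5.92 in control arrays. Every knockout array lay below every control array of its region, and 2 of 3 knockout posterior arrays detected the gene. Of the 5 anterior markers given above, 3 passed as lower in the knockout anteriorly and 0 posteriorly, though their summed level was lower in knockout arrays of both regions. Their part in this difference was not tested. The calls held in 5 of 21 other settings for Slc16a3, 9 of 23 for Rpia, 13 of 22 for Mxi1, and for Ak4 9 of 23 in knockout and 12 of 23 in control arrays. Under median scaling the change of Slc16a3 was -0.32 (adjusted p = 0.398) and that of Mxi1 was -0.03 (adjusted p = 0.968). Leaving out single arrays ended the Slc16a3 call for every array but knockout posterior replicate 1 and control anterior replicate 3, with changes from -0.69 to -0.57 and adjusted p-values up to 0.146. It ended the Rpia call for the same arrays (adjusted p up to 0.143) and the Mxi1 call for knockout anterior replicates 2 and 3 and knockout posterior replicates 2 and 3 (adjusted p up to 0.091). The Ak4 call in knockout arrays was lost without any array but control anterior replicate 3 and control posterior replicate 1 (adjusted p up to 0.149), and that in control arrays without any but knockout anterior replicate 2, knockout posterior replicate 2 and control anterior replicate 3 (adjusted p up to 0.184). 0 of 51 passed by limma in a single region between the genotypes, beside 0.503% of all genes anteriorly and 0% posteriorly. At an unadjusted p under 0.05 there were 8 anteriorly and 9 posteriorly, beside 1009 and 1104 of all 11124 genes. In the interaction 0 passed, beside 0.00899% of all genes, and 2 had an unadjusted p under 0.05, beside 685 of all genes.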

How the data were processed

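Illumina bead array signals of 12 epiblast samples were used, read with GenomeStudio per the submitters' processing notes, whose version the sources used here do not name. A deposited table of 46237 probes gives intensity without normalization, per the file headers, and a detection p-value per probe and array, per the file headers. The deposited series matrix holds log2 values of 33557 probes, with its software not given in the sources used here, and served as an alternative.

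Intensities were corrected and quantile normalized with neqc (offset 16) in limma 3.58.1, R 4.3.3, and 21051 probes with a detection p under 0.05 on at least 3 of 12 arrays were kept. Names came from the platform annotation, updated through RefSeq (GRCm38.p6). 30058 probes carried 1 name, 16179 none, and 3455 genes had several detected probes. One limma model with 4 group means gave 6 contrasts over 11124 genes, with adjusted p under 0.05 as threshold and prior degrees of freedom of 4.86. The code was tested on simulated data. A level of a probe is not set against that of another, though the summed levels of marker lists add intensities over probes.

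The members, the pathway list and the marker lists were chosen with earlier results of these data known. All measured members are named, with every array given for called members and for those with non-overlapping groups and a change of at least 0.5, and for Vegfa, Hif1a, Ldha and Pdk1. Called genes of the wider list are named. The number of arrays limits the precision.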

Additional observations from a re-analysis of the deposited data

How the results depend on the processing

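Counts of members passing between genotypes, in the anterior region, the posterior region, on average and in the interaction, were 0 in all settings tried. For posterior against anterior in knockout arrays, 5 members passed. There were 2, Egln3 and Ddit4, under median scaling, cyclic loess, no detection filter and the groups compared alone, and 3, Ankrd37, Egln3 and Ddit4, without background correction, with the series matrix and with probes detected on all 12 arrays (22 members). Leaving out 1 array gave 2 to 6. It was 2 without knockout anterior replicate 1 or 2, knockout posterior replicate 2 or 3, or control posterior replicate 3, and 3 without control posterior replicate 1 or 2. In control arrays 2 members passed, 5 with array weights (Pfkm, Pgam2, Eno2, Ankrd37 and Egln3) and 4 on the groups compared alone. Leaving out 1 array gave 1 to 3, with Egln3 alone left without control anterior replicate 3 or control posterior replicate 2. The cause was not tested, beyond fewer arrays or genes. The groups compared alone could not be used for the average and the interaction, which need all 4 groups. Median scaling put the median of all genes at 0.16 in the posterior genotype comparison (-0.02 otherwise), at 0.16 along the knockout axis (-0.01 otherwise) and at 0.13 for the average (0.00 otherwise).

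The labels do not say whether replicate numbers pair the samples across regions, and correlations over 3 arrays a group cannot decide it. Deviations of same-numbered arrays correlated between -0.11 and 0.05 in knockout and between 0.06 and 0.22 in control embryos across regions, and arrays correlated best with their own number in 0 of 3 and 2 of 3 cases. With the number as a fixed replicate block, 3 members passed in knockout arrays (Eno2, Egln3 and Ddit4) and 2 in control arrays. With a random block, whose estimated correlation was 0.03, the counts were 5 and 2. Members near the detection limit, Eno2, Pgam2 and Egln1, are among the least certain. So is Ankrd37, whose knockout call along the axis held in 12 of 23 other settings.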
